A study of Mus musculus with 21 samples.

Results

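Sprr1a, Gdf3, Vsig8 and Ubd are 4 genes of mouse liver that were chosen by their read counts, because they were near absent on chow and clearly present on a high-fat, methionine-low, choline-deficient diet (HFMCD), in both genotypes of the study. They are 4 of the 55418 genes in the deposited tables, and all 4 had enough reads to be among the 15677 genes tested. Their difference between the diets is therefore what selected them and is given below as a description, with no test. The choice also required clear expression on HFMCD in both genotypes, so a gene silent in 1 of them could not have been picked. Their neighbours and the genes of their pathways were not used in the choice.

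The study sequenced RNA of whole, perfused livers from mice lacking Mboat7 in hepatocytes (KO) and from wild-type mice (WT). On chow there were 6 WT and 7 KO livers from mice 10 weeks old, and on HFMCD there were 4 WT and 4 KO livers from mice that were 6 to 8 weeks old when the diet began and ate it for 6 weeks. Age and the series of animal numbers went together with diet, so these cannot be told apart. The labels name neither the Cre driver nor the sex of the mice. Mboat7, which encodes an acyltransferase of phosphatidylinositol, had 15.8 to 24.1 CPM (counts scaled to a common library size) in the KO livers and 33.0 to 39.7 CPM in the WT livers of both diets, with no overlap between genotypes. Libraries held 17502231 to 25822972 counts.

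The 4 genes encode unrelated proteins. Sprr1a encodes a small proline-rich protein that transglutaminases cross-link into the cornified envelope of squamous epithelium, and it is also known from injured neurons and stressed heart muscle. Gdf3 encodes a secreted ligand of the TGF-beta superfamily that acts in the early embryo through activin-type receptors with a co-receptor of the Cripto family, and it is known in macrophages of adipose tissue. Vsig8 encodes a membrane protein with immunoglobulin domains, known from hair follicle and nail and described as a ligand of the immune checkpoint receptor VISTA. Ubd encodes FAT10, a ubiquitin-like modifier that is induced by interferon-gamma and TNF and that sends the proteins it is attached to, to the proteasome.

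The genes were low and high in the same livers by the choice itself, and shared control was not tested. No promoter of Gdf3 was available in the source used. The promoters of the other 3 genes are shown so that their letters can be set beside each other. They come from RefSeq on GRCm38.p6, run from 250 bases before to 50 bases after a start site, and are written 5′ to 3′ on the strand of the gene, with matches to the motifs searched in capitals. Sprr1a lies at chr3:92485832-92486131 on the minus strand, with a start site slightly inside the GENCODE gene. Vsig8 lies at chr1:172555688-172555987 and Ubd at chr17:37193642-37193941, both on the plus strand and with the GENCODE start site.
Sprr1a: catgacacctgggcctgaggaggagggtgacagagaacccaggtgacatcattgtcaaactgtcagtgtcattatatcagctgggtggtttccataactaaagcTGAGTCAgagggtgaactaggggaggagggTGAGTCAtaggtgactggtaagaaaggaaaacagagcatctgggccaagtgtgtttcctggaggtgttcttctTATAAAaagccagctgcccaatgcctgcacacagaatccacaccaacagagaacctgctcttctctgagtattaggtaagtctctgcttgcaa
Vsig8: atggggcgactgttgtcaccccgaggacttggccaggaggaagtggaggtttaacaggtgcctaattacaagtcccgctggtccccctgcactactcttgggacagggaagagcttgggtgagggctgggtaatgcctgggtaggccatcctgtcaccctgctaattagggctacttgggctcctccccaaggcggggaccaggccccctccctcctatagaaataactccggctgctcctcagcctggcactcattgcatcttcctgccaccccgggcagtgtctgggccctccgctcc
Ubd: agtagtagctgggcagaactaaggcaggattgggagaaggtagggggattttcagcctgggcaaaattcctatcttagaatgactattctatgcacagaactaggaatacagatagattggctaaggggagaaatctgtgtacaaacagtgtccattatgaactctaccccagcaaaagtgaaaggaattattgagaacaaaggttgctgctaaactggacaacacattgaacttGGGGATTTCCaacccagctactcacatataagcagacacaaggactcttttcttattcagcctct

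A search on both strands covered the TATA box (TATAAA) and the motifs of AP-1 (TGANTCA), C/EBP (TTGCNNAA), STAT (TTCNNNGAA), IRF (GAAANNGAA) and NF-kappaB. The Sprr1a promoter held the AP-1 motif at -146 and at -116 from the start site and a TATA box at -43. The Ubd promoter held an NF-kappaB motif at -15. The Vsig8 promoter held none of these letters, nor did the window of a second RefSeq start site of Vsig8. Of 32851 RefSeq promoters of the same length, 13.6% held the TATA box, 7.81% the AP-1 motif, 10.8% the C/EBP motif, 8.3% the STAT motif, 8.56% the IRF motif and 8.46% the NF-kappaB motif. These matches describe letters in a window and are not binding sites.

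Sprr1a (ENSMUSG00000050359.7, chromosome 3, 92483952 to 92485895, minus strand, GRCm38) had 0 reads in each of the 6 WT chow livers. In the 7 KO chow livers it ranged from 0 to 2 reads with a median of 0. On HFMCD the WT livers held 129, 150, 191 and 92 reads, or 5.31, 5.86, 7.71 and 3.73 CPM. The KO livers held 183, 112, 118 and 154 reads, or 7.27, 4.12, 4.27 and 5.82 CPM. Every HFMCD liver was far above every chow liver, and WT and KO interleaved. Per summed library size the level on HFMCD was at least 223-fold higher than on chow in WT, with the chow sum set to 3 counts over the group, and 252-fold higher in KO (exact 95% interval 85.9 to 1230). The KO ratio rested on 3 reads on chow, and without KO chow replicate 3, which held 2 of them, it was 665. Such intervals cover counting error only.

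Gdf3 (ENSMUSG00000030117.5, chromosome 6, 122605403 to 122610087, minus strand) had 1 read over the 6 WT chow livers and 4 reads over the 7 KO chow livers, with no more than 2 in any of them and a median of 0 in both groups. On HFMCD the WT livers held 478 reads in all, with 4.82, 4.73, 4.28 and 5.43 CPM. The KO livers held 136, 90, 147 and 64 reads, or 5.40, 3.31, 5.32 and 2.42 CPM. The WT livers lay close together, with a coefficient of variation of 9.87% where counting alone gives 9.15%, and the KO livers were wider apart, at 36.2% where counting gives 9.57%. The level on HFMCD was 570 times that on chow in WT (9.15 on the log2 scale, exact 95% interval 6.67 to 14.5) and 146 times in KO (56.5 to 537). Without WT chow replicate 2, the only WT chow liver with a read, the WT value was a lower bound of 165, and without KO chow replicate 1 the KO ratio was 243. Of the 2374 stretches of 50 bases in Gdf3 exons, 77 (3.24%) also occur in another gene, so a small share of its reads could be placed elsewhere.

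Vsig8 (ENSMUSG00000049598.9, chromosome 1, 172555938 to 172563717, plus strand) likewise had 1 read in WT on chow and 4 in KO, with a highest value of 2 and a median of 0 in each group. On HFMCD the WT livers held 386 reads in all, with 3.58, 4.69, 3.07 and 4.18 CPM. The KO livers held 98, 117, 176 and 152 reads, or 3.89, 4.30, 6.37 and 5.74 CPM. KO replicates 3 and 4 were above every WT liver, and KO replicates 1 and 2 lay within the WT range. The level on HFMCD was 460 times that on chow in WT (exact 95% interval 82.1 to 18200) and 181 times in KO (70.3 to 667). Without WT chow replicate 5, which held the single WT read, the WT value was a lower bound of 132, and without KO chow replicate 6 the KO ratio was 311. The gene lies over 4933439K11Rik on the other strand, with 0 exon bases in common.

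Ubd (ENSMUSG00000035186.6, chromosome 17, 37193892 to 37196095, plus strand) was the most abundant of the 4 on HFMCD and the only one with reads in most WT chow livers. On chow it ranged from 0 to 8 reads in WT with a median of 3.5, and from 0 to 3 in KO with a median of 0. On HFMCD the WT livers held 659, 1100, 850 and 835 reads, or 27.2, 43.0, 34.3 and 33.8 CPM. The KO livers held 765, 790, 1211 and 1123 reads, or 30.4, 29.0, 43.9 and 42.4 CPM. The KO livers formed a pair near 30 CPM and a pair above 40 CPM, and the WT livers lay between 27.2 and 43.0 CPM and overlapped both. The level on HFMCD was 205 times that on chow in WT (7.68 on the log2 scale, exact 95% interval 7.06 to 8.4) and 741 times in KO (359 to 1840).

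**Figure D1:**
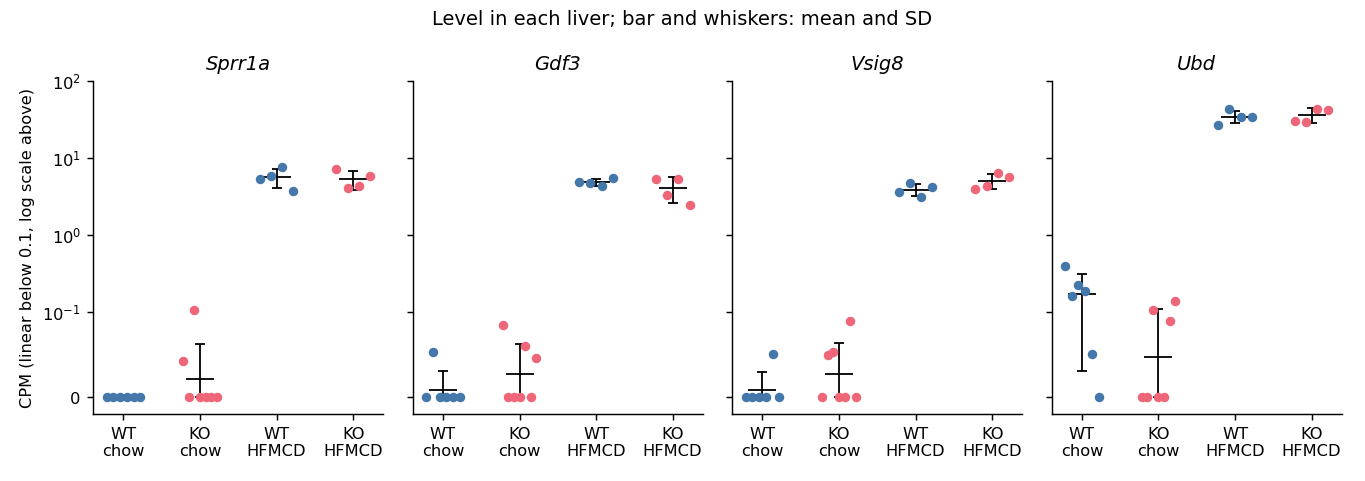
CPM of each gene (vertical axis, linear below 0.1 and logarithmic above) in each of the 21 livers by genotype and diet, 1 point per liver, with the group mean and SD as bar and whiskers. No HFMCD liver fell below 2.42 CPM for any of the 4 genes, and no chow liver exceeded 0.391 CPM.

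Since the 4 genes were picked for this contrast, the count of 4 of 4 higher on HFMCD carries no information beyond the choice. As background, 62.5% of the 15677 tested genes were called between the diets in WT (29.0% higher and 33.6% lower on HFMCD) and 69.7% in KO (33.7% higher and 36.0% lower), by the edgeR quasi-likelihood test at a Benjamini-Hochberg adjusted p under 0.05. In bulk liver, more cells of a type and more RNA per cell cannot be told apart.

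**Figure D2:**
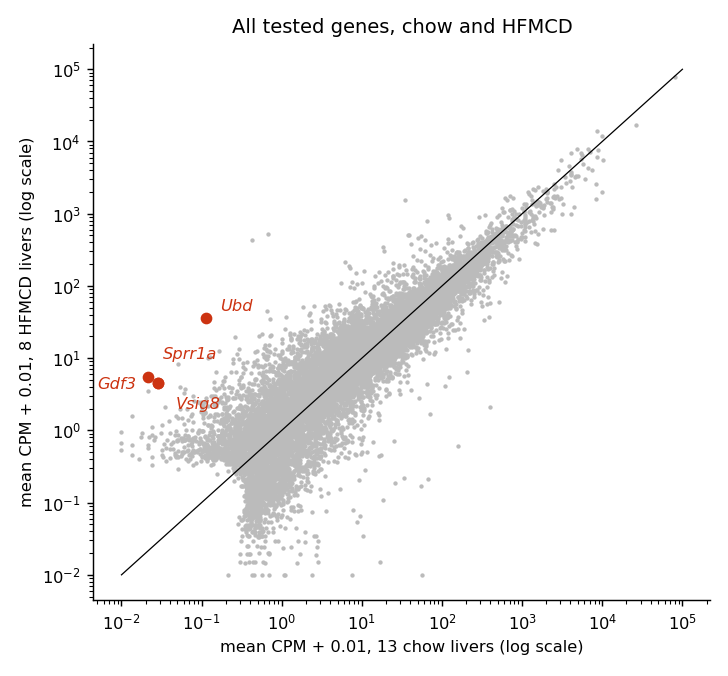
Mean CPM + 0.01 of each of the 15677 tested genes (grey points) over the 13 chow livers (horizontal axis, log scale) and the 8 HFMCD livers (vertical axis, log scale), with the line of equality. The 4 genes (red) stand near the left edge; the points of Gdf3 and Vsig8 coincide, at 4.46 and 4.48 CPM on HFMCD.

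Levels were compared between genes as CPM per kilobase of exon (RPKM). Ubd stood at 37.1 RPKM ± 6.97 (SD, n = 4) in WT and 39.1 RPKM ± 8.36 (SD, n = 4) in KO on HFMCD, above 92.7% and 93.2% of the tested genes. Sprr1a followed with 7.01 RPKM ± 2.04 (SD, n = 4) in WT and 6.66 RPKM ± 1.84 (SD, n = 4) in KO, above 72.1% and 71.2%. Vsig8 had 2.06 RPKM ± 0.375 (SD, n = 4) in WT and 2.70 RPKM ± 0.624 (SD, n = 4) in KO. Gdf3 had 1.99 RPKM ± 0.196 (SD, n = 4) in WT and 1.70 RPKM ± 0.614 (SD, n = 4) in KO. The ranges over the 8 HFMCD livers were 29.2 to 47.1 RPKM for Ubd and 4.63 to 9.56 for Sprr1a, which overlapped neither each other nor the lower pair, while those of Vsig8 (1.63 to 3.39) and Gdf3 (0.997 to 2.24) overlapped.

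The 4 genes did not rank the HFMCD livers alike. KO replicate 3 was the highest liver for Ubd and Vsig8, and for both genes the 3 highest livers were KO replicates 3 and 4 and WT replicate 2. KO replicate 4, the second highest for Vsig8, was the lowest for Gdf3. WT replicate 4 was the highest for Gdf3 and the lowest for Sprr1a, and WT replicate 3 was the highest for Sprr1a and the lowest for Vsig8. For Ubd the coefficient of variation within a group was 18.8% in WT, where counting alone gives 3.41%, and 21.4% in KO, where it gives 3.21%. For Sprr1a it was 29.0% in WT against 8.44% from counting, and 27.6% in KO against 8.40%.

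The genotype comparison within HFMCD asked whether loss of hepatocyte Mboat7 altered these genes once the diet was given. The difference between genotypes was not a criterion of the choice, but the levels compared here were, since each gene had to be expressed in both, which limits the comparison to genes present in both genotypes. None of the 4 was called, where 0.319% of tested genes (50) were called in that comparison and 1562 had an unadjusted p under 0.05. That count of 50 was itself unstable, at 1 to 75 with single livers left out, 193 with DESeq2 and 296 in a fit of the compared groups only. Vsig8 had the largest difference, as WT livers averaged 3.88 ± 0.705 CPM (SD, n = 4) and KO livers 5.08 ± 1.17 CPM (SD, n = 4). The log2 fold change of KO over WT was 0.39 with an SE of 0.284 (edgeR adjusted p = 0.706; exact two-sided permutation p = 0.171), and the 95% interval of the fold was 0.872 to 1.96. For Gdf3, WT livers averaged 4.81 ± 0.475 CPM (SD, n = 4) and KO livers 4.11 ± 1.49 CPM (SD, n = 4), and the log2 value was -0.23 with an SE of 0.298 (edgeR adjusted p = 0.876; fold interval 0.558 to 1.31). Sprr1a differed by -0.08 (SE 0.304, edgeR adjusted p = 0.972; fold interval 0.611 to 1.48) and Ubd by 0.08 (SE 0.227, edgeR adjusted p = 0.959; fold interval 0.761 to 1.46), both log2 fold changes of KO over WT. The groups overlapped for each gene, and a permutation of 4 against 4 livers cannot give a p below 0.0286. The sign of the Sprr1a and Ubd differences changed when single livers were left out.

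**Figure D3:**
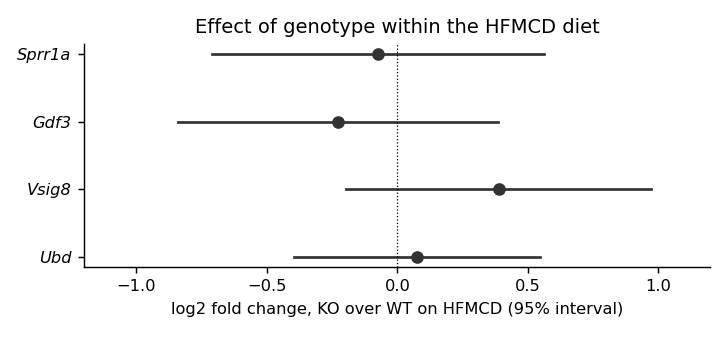
Fitted log2 fold change of KO over WT on HFMCD (points) with its 95% interval (lines) for the 4 genes, from the edgeR model of all 21 libraries. Each interval includes 0, and that of Vsig8 reaches highest, from -0.197 to 0.973.

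On chow, where 2.17% of tested genes (340) were called between genotypes, none of the 4 was called. The choice required near absence on chow in both genotypes, which left few reads in which a difference could show. The count of 340 was 49 to 611 with single livers left out, 713 with DESeq2 and 2 in a fit of the compared groups only. WT livers averaged 0.169 ± 0.138 CPM of Ubd (SD, n = 6), and KO livers 0.0476 ± 0.0609 CPM (SD, n = 7). Its log2 fold change of -1.67 (SE 0.717, 95% interval -3.16 to -0.183) had an unadjusted edgeR p of 0.0295 and an edgeR adjusted p of 0.218, and the exact two-sided permutation p was 0.0851. It rests on 20 reads in WT and 7 in KO, 8 of the 20 in WT replicate 1, and without that liver it was -1.23 (edgeR adjusted p = 0.414). The other 3 genes had at most 2 reads per chow liver, so no fold is given for them. A difference of the KO effect between diets was called for 0.0% of tested genes (0 of 15677 by edgeR, with 1581 at an unadjusted p under 0.05, and 99 called by DESeq2). The edgeR adjusted p of that difference was 0.432 for Ubd, 0.517 for Sprr1a, 0.685 for Gdf3 and 0.822 for Vsig8. Because the choice kept chow counts near 0 in both genotypes, this comparison could hardly detect a difference, least of all for Sprr1a, Gdf3 and Vsig8.

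Genes next to the 4 on the chromosome were examined, taking the 3 nearest protein-coding genes on each side. Around Sprr1a, which lies in the epidermal differentiation complex, Sprr2k, Sprr1b, Sprr3, Sprr4 and 2310046K23Rik had 0 reads in all 21 livers. Ivl, the gene of the envelope precursor involucrin, had 0 reads in WT and 3 in KO on chow and 18 and 10 on HFMCD. All 6 neighbours of Ubd were odorant receptor genes (Olfr91 to Olfr96), and each had 0 reads in all livers. Apart from Ivl, the reads of Sprr1a and Ubd thus stood among genes without reads.

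Around Gdf3, 3 of 6 neighbours could be tested, and each rose on HFMCD in both genotypes, where 29.0% of all tested genes were called higher in WT and 33.7% in KO. Apobec1, the enzyme that edits apolipoprotein B mRNA, rose by 1.75 in WT (SE 0.122, edgeR adjusted p = 2.66e-11) and by 1.87 in KO on the log2 scale. Dppa3, a maternal factor that protects DNA methylation in the zygote, rose by 2.83 in WT (SE 0.697, edgeR adjusted p = 0.00117) and by 3.46 in KO, from a sum of 6 to 39 reads and of 5 to 47 reads. Slc2a3, the glucose transporter GLUT3, rose by 0.83 in WT (SE 0.282, edgeR adjusted p = 0.0135) and by 1.30 in KO. Nanog, the pluripotency factor of the same locus, had 1 read per genotype on chow and 0 on HFMCD.

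Around Vsig8, 4 of 6 neighbours could be tested. Slamf8, a receptor of the SLAM family of myeloid cells, rose by 3.78 in WT (SE 0.289, edgeR adjusted p = 1.27e-10) and by 3.41 in KO. Tagln2, an actin-binding protein gene, rose by 2.48 in WT (SE 0.119, edgeR adjusted p = 6e-14) and by 2.75 in KO. Dusp23, a phosphatase gene, fell in both genotypes, with log2 fold changes of -0.80 and -1.04. Igsf9 rose in KO by 1.21 (edgeR adjusted p = 0.0191), and its value in WT was 0.20 (edgeR adjusted p = 0.74).

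**Figure D4:**
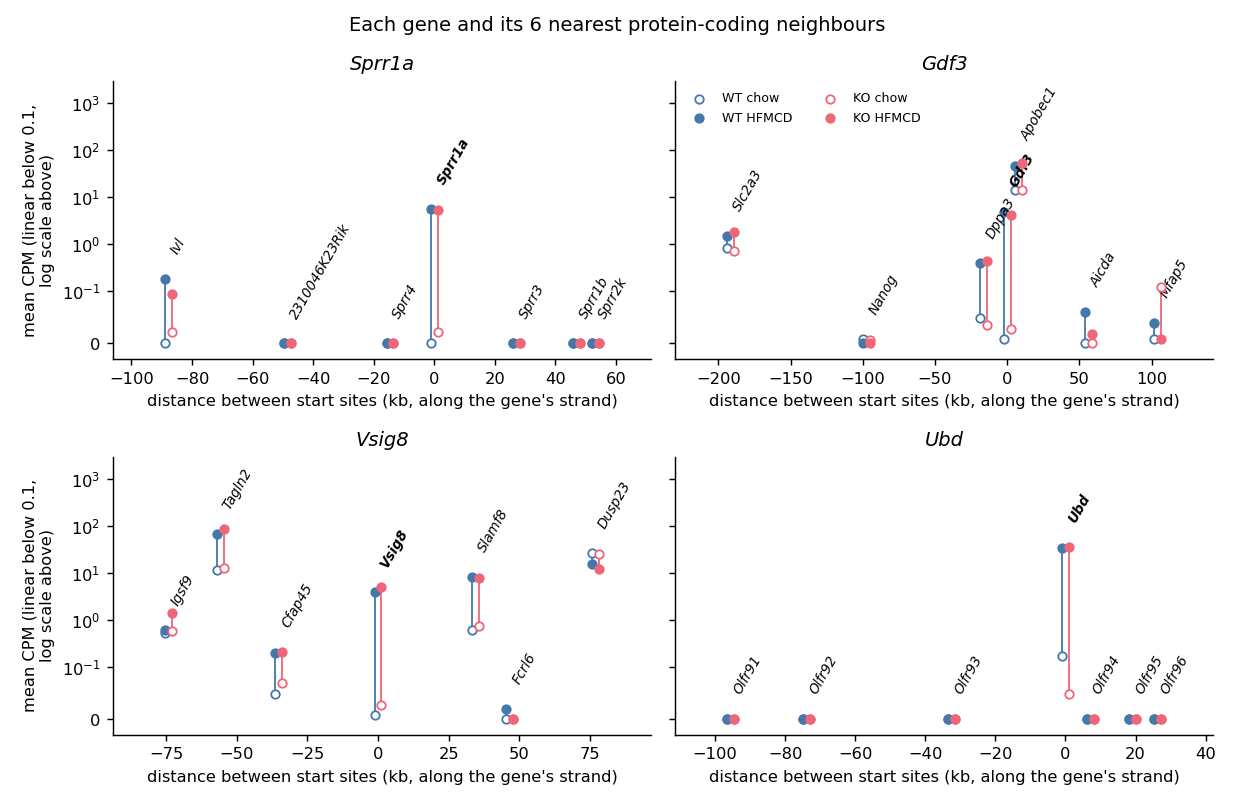
Mean CPM (vertical axis, linear below 0.1 and logarithmic above) on chow (open) and HFMCD (filled) of each gene and its 6 nearest protein-coding neighbours, by the distance between start sites along the gene's strand in kb, for WT (blue) and KO (red). The neighbours of Ubd and 5 of the 6 of Sprr1a lie at 0, whereas Apobec1 and Dppa3 near Gdf3 and Slamf8 and Tagln2 near Vsig8 were higher on HFMCD.

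Of the cornified envelope and epidermal differentiation complex, 5 of 37 listed genes had enough reads to test. Evpl, which encodes envoplakin, rose by 1.13 in WT (SE 0.357, edgeR adjusted p = 0.00841) and by 1.22 in KO. Lor, the gene of the envelope protein loricrin, fell by 2.41 in WT and fell by 3.43 in KO. Tchh, Tgm1 and Ppl were not called. The median log2 fold change of the 5 was 0.28 in WT and 0.15 in KO, where that of all tested genes was -0.05 and -0.02. No other Sprr gene exceeded 4 reads over a group. Skin keratinocyte markers gave a summed level of 1.87 to 4.17 CPM on chow and 0.906 to 2.83 CPM on HFMCD. Of them 2 of 12 were tested and both were lower, where 33.6% of all tested genes were lower in WT and 36.0% in KO. Krt1, Krt15, Krt16, Dsg3, Dsc3 and Krtdap were at 0 in all groups. Krt5 had 0 reads on chow in both genotypes and 18 in WT and 9 in KO on HFMCD, and Col17a1 had 3 and 3 on chow and 11 and 16 on HFMCD, both too few to test.

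Hair and nail keratinocyte markers, which fit the known sites of Vsig8, reached at most 0.278 CPM in sum in any liver, with 0 of 11 tested. Krt27, Krt31, Krt33a, Krt33b, Krt35, Krt71, Krt73 and Hoxc13 were at 0 in all groups. Of the immunoglobulin-domain genes related to Vsig8, 10 of 12 were tested, and 6 rose and 1 fell in each genotype, with a median of 0.70 in WT and 0.90 in KO. Over all tested genes, 29.0% rose and 33.6% fell in WT (median -0.05), and 33.7% rose and 36.0% fell in KO (median -0.02). Vsir, the gene of VISTA, rose from 7.9 to 35.8 CPM in WT (log2 fold change 2.17, SE 0.191, edgeR adjusted p = 2.97e-09) and from 8.97 to 38.8 CPM in KO (2.11). Vsig4, a complement receptor of Kupffer cells, rose by 1.80 in WT and 1.73 in KO. Clmp, an adhesion molecule gene, rose by 2.02 and 2.43, Cxadr by 1.01 and 1.28, and Vsig2 fell, with log2 fold changes of -3.35 and -4.21.

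Of the genes of GDF3 and Nodal signalling, 19 of 25 were tested, and 5 rose and 5 fell in WT and 6 rose and 6 fell in KO, with medians of 0.18 and -0.09. These counts are near the background of 29.0% higher and 33.6% lower in WT and 33.7% higher and 36.0% lower in KO. Among the receptors, Acvr1b (ALK4) rose by 0.64 in WT (SE 0.148, edgeR adjusted p = 0.000633) and by 0.94 in KO. Acvr2b fell by 0.97 in WT (SE 0.203, edgeR adjusted p = 0.000229) and fell by 1.11 in KO, and Acvr2a fell, with log2 fold changes of -0.29 and -0.43. Acvr1c (ALK7) was too low to test, with 23 and 33 reads on chow and 18 and 13 on HFMCD in WT and KO. The co-receptor gene Tdgf1 had 1 read in all 21 livers. Of the other growth differentiation factors, 6 of 10 were tested, of which 4 rose and 1 fell in WT (median 1.79) and 3 rose and 2 fell in KO (median 1.24). Gdf2, the gene of BMP9, rose by 1.6 in WT and 1.43 in KO, Gdf6 by 2.45 and 2.96, and Gdf10 by 1.98 and 2.19. Pluripotent cell markers summed to 0.28 to 2.28 CPM on chow and to at most 1.98 CPM on HFMCD. Of them 2 of 10 were tested, and Dppa3 was the only one called.

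The enzymes of FAT10 conjugation and turnover were present on both diets. Of 10 tested, 3 rose and 4 fell in WT and 3 rose and 3 fell in KO, with medians of -0.13 and -0.04, again near the background of 29.0% higher and 33.6% lower in WT and 33.7% and 36.0% in KO. Uba6, the activating enzyme of FAT10, rose by 0.67 in WT (SE 0.128, edgeR adjusted p = 9.09e-05) and by 0.54 in KO. Ube2z, its conjugating enzyme, had a log2 fold change of -0.15 in WT with an edgeR adjusted p of 0.0785, and of -0.12 in KO, where the edgeR adjusted p was 0.132. Nub1, which carries FAT10 to the proteasome, had 0.14 in WT (edgeR adjusted p = 0.172) and rose by 0.32 in KO (edgeR adjusted p = 0.00225). Mad2l1, the spindle checkpoint protein that binds FAT10, rose by 3.07 and 3.01. The proteasome subunit genes Psmd4 and Adrm1 fell, with log2 fold changes of -1.47 and -0.77 in WT and of -1.32 and -1.01 in KO. Of 13 other ubiquitin-like modifiers, 2 rose and 3 fell in WT and 2 rose and 4 fell in KO, and the interferon-induced Isg15 rose by 1.54 in WT and by 1.0 in KO, to 15.6 and 9.82 CPM.

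Genes of the response to interferon-gamma and TNF, the known inducers of Ubd, were counted beside the background shares of 29.0% higher in WT and 33.7% in KO. Of 24 tested (25 listed), 19 rose and 0 fell in WT and 20 rose and 1 fell in KO, with medians of 1.81 and 1.76. The chemokine gene Ccl2 rose by 4.66 in WT (SE 0.314, edgeR adjusted p = 1.54e-11) and 4.52 in KO, and Tnfaip3, an inhibitor of NF-kappaB, by 2.35 and 2.32. Tnf rose by 2.76 and 2.92, and the interferon-gamma target Cxcl9 by 3.05 and 3.37. Ifng itself was too low to test, with 2 and 1 reads on chow and 2 and 10 on HFMCD in WT and KO. Of the 13 immunoproteasome and MHC class I loading genes, 11 rose and 1 fell in WT and 11 rose and 2 fell in KO, with medians of 0.59 and 0.60. Psmb9, an immunoproteasome subunit, rose by 1.82 in WT and 2.22 in KO, and Nlrc5, which drives MHC class I transcription, fell, with log2 fold changes of -0.53 and -0.74. None of these 8 pathway lists held a gene called between KO and WT on HFMCD, where 0.319% of all tested genes were called, so a count of 0 is near the background.

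**Figure D5:**
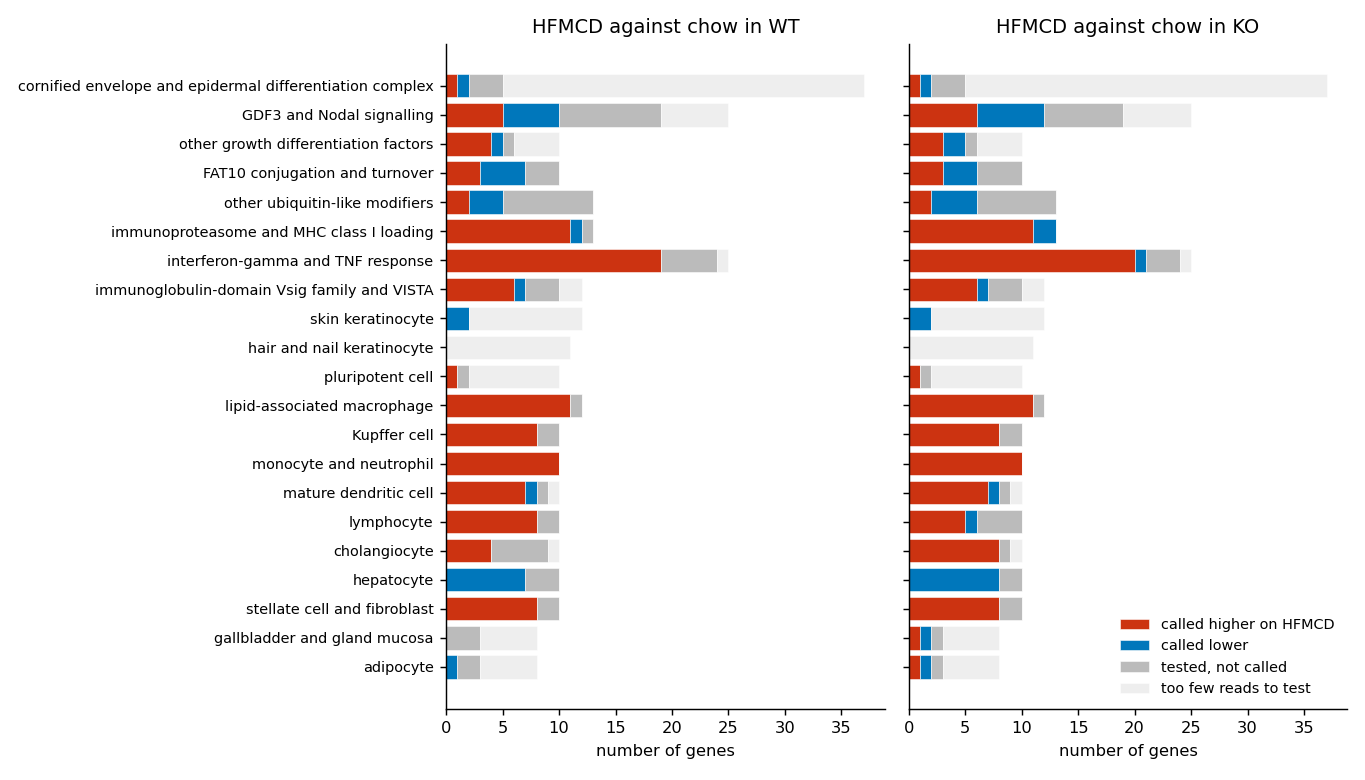
Number of genes (horizontal axis) of each of the 21 lists that were called higher (red) or lower (blue) on HFMCD, tested but not called (grey) or too low to test (pale), in WT (left) and KO (right). The skin and hair keratinocyte lists were almost wholly too low to test, while 11 of 12 lipid-associated macrophage genes were called higher in both genotypes. Of all tested genes, 29.0% were called higher in WT and 33.7% in KO.

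Marker genes of several liver cell types were also higher on HFMCD, and their part in the rise of the 4 genes was not tested. The background shares of all tested genes were 29.0% higher and 33.6% lower in WT, and 33.7% higher and 36.0% lower in KO. Lipid-associated macrophage markers summed to 921 to 1610 CPM on chow and 3050 to 4690 CPM on HFMCD, with 11 of 12 higher in each genotype. Plin2, which was not called, made up the largest part of the chow sum, with means of 1000 CPM in WT and 680 CPM in KO. The sum thus says little about the other genes of the list on chow. Gpnmb rose by 9.74 in WT and 9.45 in KO, Mmp12 by 9.92 and 10.1, and Trem2 by 6.12 and 6.07 on the log2 scale. Monocyte and neutrophil markers were higher for 10 of 10 in both genotypes, Kupffer cell markers for 8 of 10, and stellate cell and fibroblast markers for 8 of 10. Mature dendritic cell markers were higher for 7 and lower for 1 of 9 tested in both genotypes. Lymphocyte markers were higher for 8 of 10 in WT, and for 5 with 1 lower in KO. Cholangiocyte markers were higher for 4 of 9 in WT and 8 of 9 in KO. On HFMCD, 6 of 9 were also higher in KO than in WT (3 of 9 with RLE scaling or no low-count filter). In that comparison 0.319% of all tested genes were called and none of the 4 genes was. Hepatocyte markers were lower for 7 of 10 in WT and 8 of 10 in KO, with a sum of 96800 to 149000 CPM. Alb, which was not called, made up the largest part of that sum, with group means of 76400 to 82000 CPM. The sum thus says little about the other hepatocyte markers. The lowest group mean of any hepatocyte marker was 440 CPM, for Hnf4a in KO on HFMCD. Of the gallbladder and gland mucosa markers 3 of 8 were tested, with none called in WT and 1 higher and 1 lower in KO, and of the adipocyte markers 3 of 8, with 1 lower in WT and 1 higher and 1 lower in KO.

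The genes with the most similar profiles were sought among the tested genes without clone or model names. The measure was the mean absolute difference of centred log2 CPM over the 21 libraries, a description that reflects mainly the difference between diets. Slc7a11, the cystine transporter gene, was the nearest gene to Vsig8 (0.261), the second to Gdf3 (0.419) and the third to Sprr1a (0.442), against medians over tested genes of 2.56, 2.55 and 2.74. It had 0.0115 CPM on chow and 3.54 CPM on HFMCD on average. Sprr1a was among the 4 nearest genes of Vsig8 (0.36) and of Gdf3 (0.38) and had both among its own, while Vsig8 was among those of Gdf3 (0.452) but Gdf3 was not among those of Vsig8. Sprr1a, Gdf3 and Vsig8 were chosen for the same difference between diets, so their nearness to each other follows from the choice. Clec7a, which encodes the beta-glucan receptor dectin-1, and Cib3 came close to Vsig8, at 0.335 and 0.415. Lgals3, the gene of galectin-3, came close to Gdf3, at 0.434. The prior count of 2 in log2 CPM compresses values near 0, so a gene with a smaller rise can come close. Clec7a averaged 6.18 CPM on chow and 212 CPM on HFMCD, and Vsig8 0.0187 and 4.48 CPM. All distances given here share this limit. Ubd stood further from any of the genes searched, with Trem2 nearest at 0.923, then Themis and Gsta1 (both 1.04) and Sprr1a (1.05). Mup20 was the fourth gene for Sprr1a (0.454). Mup20 and Gsta1 were not checked for sequence shared with other genes, so their counts are uncertain.

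The pattern itself was uncommon. A mean below 0.1 CPM on chow and of at least 1 CPM on HFMCD in both genotypes was found for 25 of 55418 genes, and the reverse pattern for 34. Only 15677 of the 55418 had enough reads to be tested. Of the 25, 4 had clone or model names, against 22 of the 34. Sprr1a, Gdf3 and Vsig8 were among the 25, which follows from how they were chosen. Ubd was not, since it averaged 0.169 CPM in WT on chow. By mean CPM on HFMCD, Gsta1 came first (7.25 in WT and 9.35 in KO), then Sprr1a, Vsig8 and Gdf3, then Gm3776, Lrtm2, Slc7a11, Cfap44, Cdc25c and Tnip3. Gsta1 encodes a glutathione transferase, and its sequence was not checked for stretches shared with other genes. Cdc25c encodes a phosphatase that starts mitosis. Cenpi (0.0961 CPM in KO on chow), Tnip3 (0.0959) and Kif18b (0.0958) were just inside the limit on chow, and Mmp8 (0.104), Tedc1 (0.105) and Sh2d1b1 (0.107) just outside. On HFMCD Gpr176 (1.01 CPM in WT) was just inside, and Ccr3 (0.918 in KO) just outside. With a limit of 0.2 CPM on chow 75 genes had the pattern, and with a minimum of 2 CPM on HFMCD 10 had it.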

How the data were processed

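The authors deposited raw read counts per gene, 1 table per library, for 21 whole-liver libraries in 4 groups. CASAVA 2.17, STAR 2.6.1d, featureCounts 1.6.1 and GRCm38 are named in the submitters' processing notes; annotation, strand setting and filters are not given in the sources used here. All 55418 gene names matched GENCODE M21 (GRCm38), which gave positions and exon lengths.

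Counts were fitted with edgeR 4.0.16 (R 4.3.3; filterByExpr, TMM, robust quasi-likelihood, 4 group means, 21 libraries), with 5 contrasts and Benjamini-Hochberg adjustment over 15677 genes at 0.05. SE was taken as |log2 fold change| over √F. CPM used TMM-scaled totals of tested genes; log2 CPM used a prior count of 2, which compresses low values. Diet ratios are summed counts per summed effective library size with exact Clopper-Pearson 95% intervals. Single values were compared by exact permutation. The scripts were tested on simulated data. DESeq2 1.42.0, RLE scaling, other filters, a fit to the compared groups and leaving out each library were alternatives.

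The 4 genes and the 21 gene lists were chosen with earlier results of these data known. Named genes are the 4, their 3 protein-coding neighbours on each side and their 4 most similar genes. Also named are up to 10 genes with the same pattern, up to 4 called genes per list and direct partners. Acvr2a, Cxadr, Tchh, Tgm1, Ppl, Plin2, Col17a1, keratins and other genes at 0, Tnf and Nlrc5 were named after their values were seen. Labels give each library an animal number, so p-values measure the spread between these animals; 0 library pairs were identical.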

Additional observations from a re-analysis of the deposited data

Results flagged for a closer look

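In 3 of the 15 groups of 4 to 10 livers checked, 1 liver stood far from the others, judged by its gap to the nearest liver divided by the whole range; chance flags about 1 in 20 such groups. All 3 are chow groups with 3 reads or fewer, and that rate is for continuous values: where 1 liver has 1 read and the others 0, the gap is 1.0 by construction. Sprr1a had 2 reads in KO chow replicate 3 and 1 in replicate 1, with a gap of 0.606 of the range. Gdf3 had 1 read in WT chow replicate 2 and 0 in the other livers, which gives a gap of 1.0. Vsig8 had 1 read in WT chow replicate 5 and 0 in the other livers, again a gap of 1.0.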

How the results depend on the processing

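The KO against WT difference of the 4 genes on HFMCD was not called under any alternative run (lowest adjusted p 0.413, for Vsig8), nor was that of Ubd on chow (-2.17 to -1.23; lowest adjusted p 0.0839, with DESeq2). Leaving out single livers gave -0.257 to 0.109 for Sprr1a on HFMCD, above 0 without KO replicate 2 (0.0322), KO replicate 3 (0.0191) or WT replicate 3 (0.109), and -0.0274 to 0.196 for Ubd, below 0 without KO replicate 3 (-0.0274), KO replicate 4 (-0.00688) or WT replicate 1 (-0.0266). Gdf3 stayed between -0.387 and -0.0426 and Vsig8 between 0.259 and 0.494. The number of genes called between KO and WT on HFMCD was 32 with RLE scaling, 193 with DESeq2, 28 with no filter and 296 with the compared groups only, and 1 to 75 with single livers left out. On chow it was 713 with DESeq2, 2 with the compared groups only and 49 to 611 with single livers left out. The difference between diets had 99 calls with DESeq2, 5 with no filter and 0 to 8 with single livers left out. The near-absent pattern held 75 genes below 0.2 CPM on chow and 10 at 2 CPM or more on HFMCD. List counts moved by over 1.5 times in 26 of 504 recomputations. The causes were not tested. On chow Sprr1a, Gdf3 and Vsig8 had 0 to 2 reads per liver, and no fold between genotypes is given for them. No paired analysis was possible because replicate numbers only name livers and no animal number is shared between groups.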
